A study of Mus musculus with 8 samples.

Results

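Matrix metalloproteases (MMPs), ADAMTS proteases, their catalytically inactive ADAMTS-like relatives and the TIMP inhibitors were examined in RNA-sequencing data of mouse embryonic fibroblasts (MEFs), connective tissue cells grown from embryos. The genes were chosen by name, as every row called Mmp, Timp, Adamts or Adamtsl followed by a number, with a value above 0 in at least 4 of the 8 samples. This gave 43 of 49492 genes: 16 of 23 Mmp genes, 19 of 19 Adamts, 5 of 5 Adamtsl and 3 of 4 Timp genes. Of the 8 names left out, Mmp7 and Mmp8 were at 0 in every sample and Mmp1a, Mmp12, Mmp20, Mmp21, Mmp27 and Timp4 were above 0 in 1 or 2 samples. The cells were Pontin f/f MEFs from which Cre virus had removed the endogenous Pontin gene and which stably expressed a Flag-tagged Pontin from a lentivirus, either the wild-type protein (WT) or a mutant with both of its CARM1-methylated arginines replaced by alanine (RA). Pontin is an ATPase of chromatin remodelling complexes. WT and RA MEFs were kept in normal medium or in glucose-free medium with dialyzed serum (starved), 2 samples in each of the 4 groups (cells in normal medium are called unstarved), and the comparison asks which genes depend on methylated Pontin when glucose is missing. The serum of the normal medium is not described as dialyzed, so effects of missing glucose and of dialyzed serum cannot be told apart. The length of the starvation before RNA was taken is not given in the sources used here. Each genotype is 1 stably expressing line, so effects of the Pontin form and of the line that carries it cannot be told apart. The sources do not say that the 2 samples of a group came from separate cultures, so the p-values measure only the spread between these samples.

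MMPs and ADAMTS proteases are zinc enzymes that cut collagens, proteoglycans, glycoproteins and cytokines outside the cell or at its surface. They are made as inactive proenzymes, are switched on by removal of the propeptide, often by furin or by another protease such as plasmin, and are held back by TIMPs, which fill the active site one inhibitor to one enzyme. Fibroblasts are a main source of these proteins, and they both build and clear the matrix.

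The libraries held between 43205841 and 56363034 reads, and a value is the CPM of a gene (its counts scaled to a common library total), computed by the authors with an adjusted library size. A value of 3 reads lay between 0.0548 and 0.069, and this floor covers counting error only. Of the 43 genes, 27 reached a value of 1 in at least 2 samples and were tested (9 Mmp, 12 Adamts, 3 Adamtsl and 3 Timp genes). Mmp13 alone passed only through 1 group, starved RA, so the filter favoured a high value there. The cells carried fibroblast transcripts, with 8 of 9 fibroblast markers at 1 or more and Lum below 1 in every sample. Their summed value was 7617 to 7763 in WT and 7543 to 7881 in unstarved RA, but 2913 to 2981 in starved WT and 3873 to 3882 in starved RA, so the marker list itself moved with medium and genotype; Col1a1, Col1a2 and Vim made up most of it. Among 9 leukocyte markers only Csf1r and Cd14 reached 1, and the list summed to between 19.5 and 23.0 in the 8 samples, with Ptprc at or near 0. Csf1r rose under starvation, from 10.4 and 11.3 to 19.2 and 20.1 in WT and from 13.7 and 14.3 to 18.7 and 18.6 in RA. Cd14 fell, from 7.65 and 7.58 to 1.09 and 1.06 in WT and from 7.72 and 7.17 to 2.66 and 2.68 in RA. Endothelial markers summed to 2.52 to 3.39 in unstarved and 8.92 to 9.43 in starved WT. In RA the sums were 2.05 to 3.43 unstarved and 5.99 to 6.34 starved, and only Kdr and Tek reached 1. Epithelial markers summed to at most 1.8 and skeletal muscle markers to at most 4.58, where only Cdh1 and Acta1 reached 1. Cldn5, Krt5, Krt14, Myod1, Myog and Myf5 were at 0 throughout. The part of these lists in the results was not tested, and in bulk RNA fewer cells of a type cannot be told apart from less RNA per cell.

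Inhibitors and a few proteases dominated the transcripts. On the scale of value per 1000 exon bases, which allows levels to be set side by side between genes, Timp1 stood at 131, Timp2 at 126, the proteoglycanase Adamts1 at 84.1 and Timp3 at 58.9 in unstarved WT. The gelatinase Mmp2 followed at 43 and the collagen-cutting membrane enzyme Mmp14 at 37.1. No other gene of the group exceeded 15.6 (Mmp11) per 1000 exon bases there. The lowest tested genes were Mmp13 at 0.165 and Adamts17 at 0.114. Starvation rearranged this order differently in the 2 lines. In starved WT the highest level per 1000 exon bases was that of Timp3 (80.2), ahead of Timp1 (51.3) and Timp2 (47.7), and Mmp14 (31.8) had become the highest protease while Adamts1 stood at 12.5 and Mmp2 at 7.67. In starved RA Timp2 (184) and Timp3 (157) led, with Timp1 at 83.3, Mmp14 at 30.2 and Adamtsl5 at 26.8. Exon lengths were unions of all annotated exons, so levels of genes with long rarely used exons are understated. The read counter is not given in the sources, so whether values hold exon reads of the named gene alone is not known, and the order is approximate.

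**Figure D1:**
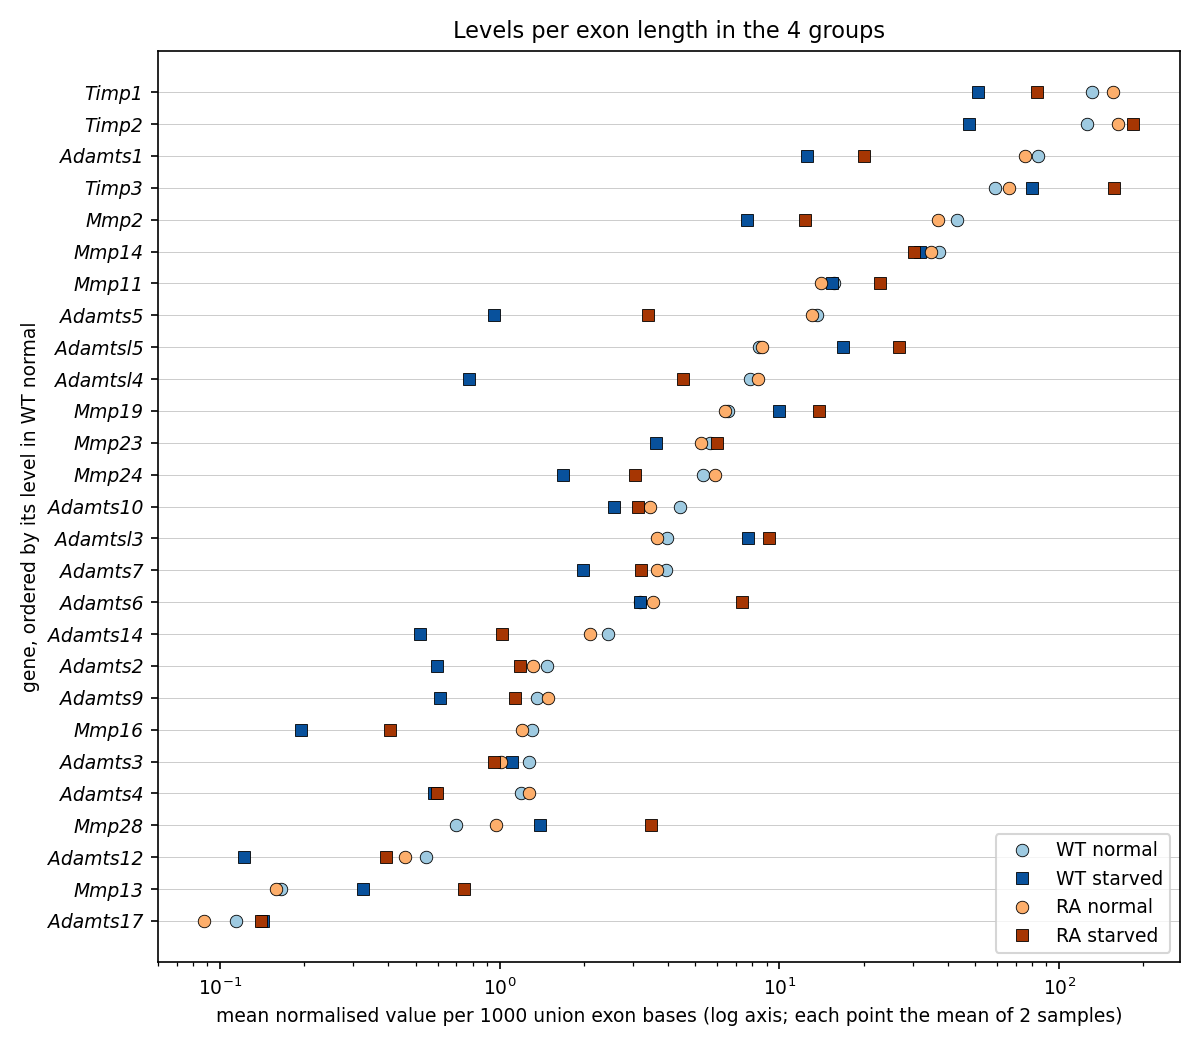
Mean value per 1000 union exon bases (log axis) for the 27 tested genes in the 4 groups, each point the mean of 2 samples, circles for normal medium and squares for starvation. The 3 Timp genes, Adamts1, Mmp2 and Mmp14 lie highest in normal medium, and the starved WT squares of Adamts5 (0.954) and Adamtsl4 (0.777) lie far to the left of the other 3 groups.

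In starved cells the whole set leaned one way between the genotypes. Under starvation 23 of the 27 genes were higher in RA than in WT and 0 were lower (limma, Benjamini-Hochberg adjusted p under 0.05 over all genes tested), where 30.8% of the 16232 genes tested were called higher and 32.1% lower, 62.9% in either direction. The median difference of the 27 genes was 0.676 log2 units, on the scale of log2 of value plus 1, against -0.008 over all genes tested. The 4 genes not called were Mmp14, Adamts3, Adamts4 and Adamts17. With median-ratio scaling Mmp14 was called lower in starved RA, and with quantile normalization Adamts3 was, as 1 lower call in each case. The starvation response itself, taken in each line against its own normal medium, also differed. In WT 6 genes rose and 17 fell (39.3% of all genes tested rose and 39.2% fell, 78.6% together), and in RA 9 rose and 12 fell (35% and 33.7%, together 68.7%). The median response was -0.839 in WT and -0.147 in RA, against 0.005 and 0.013 over all genes tested. The interaction, the starvation response of RA minus that of WT, was called above 0 for 23 genes and below 0 for none, against 24.5% above and 26.1% below over all genes tested (50.6% in all), with medians of 0.758 and -0.011. The interaction and the comparison of starved cells share the starved samples and are not separate pieces of evidence, and Mmp13, which passed the filter through starved RA, is among the 23 in each.

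**Figure D2:**
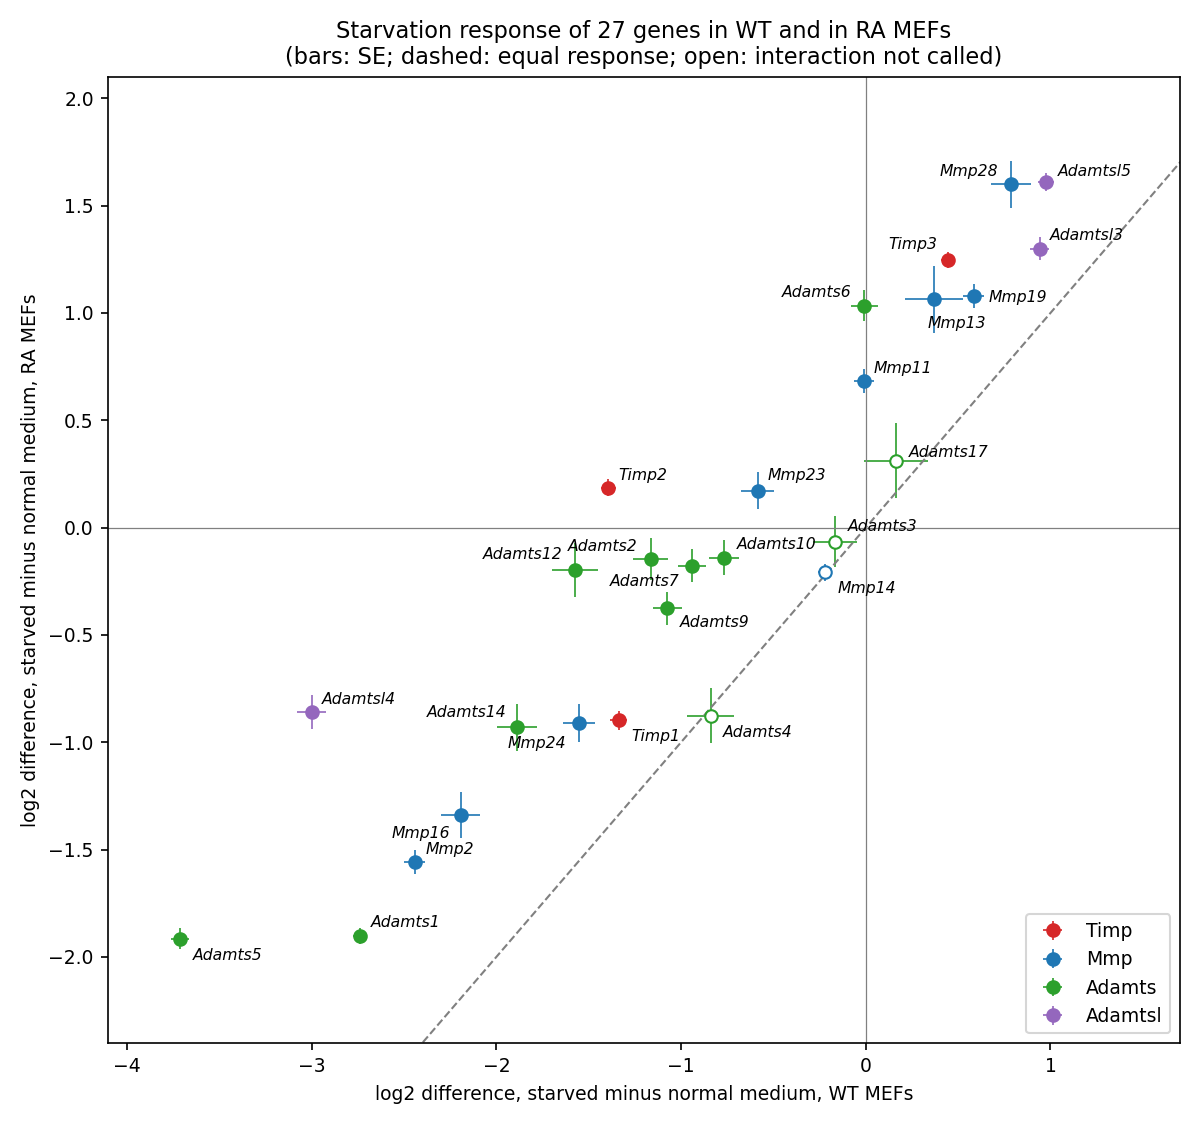
Starvation response (log2 difference, starved minus normal medium) of the 27 genes in WT (x axis) and RA (y axis), with bars for the SE; filled points have a called interaction. The 23 filled points lie above the dashed line of equal response, and the 4 open points, Mmp14, Adamts3, Adamts4 and Adamts17, lie close to it.

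The interactions were also set beside the direction of the response in WT. Over all genes tested, of 6387 genes that rose in WT, 53.2% had an interaction below 0 and 4.81% one above 0, and of 6369 that fell in WT, 50.5% had an interaction above 0 and 5.5% one below. The 17 members that fell in WT went the way of most such genes, with 15 interactions above 0 and none below. Of the 6 members that rose in WT, Timp3, Adamtsl5, Adamtsl3, Mmp19 and Mmp28 went up further in RA, each with an interaction above 0. The other one, Mmp13, also had an interaction above 0, but it passed the filter only through starved RA, so its direction was favoured by the filter. Mmp13 loses this call under several alternatives, given with its values. Of the 4 members not called in WT, Adamts6 and Mmp11 had an interaction above 0, against 12.9% of the 3476 genes not called in WT. These shares are descriptions, since the WT samples that sorted the genes also enter the interaction.

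The 3 expressed inhibitors behaved in 3 ways. TIMP1 inhibits most secreted MMPs, TIMP2 inhibits MMPs and also joins MMP14 at the cell surface in the complex that activates proMMP2, and TIMP3 binds to the matrix and inhibits ADAMTS4, ADAMTS5 and ADAM17 as well. Timp2 stood at 485 and 494 in unstarved WT, 185 and 186 in starved WT, 609 and 653 in unstarved RA and 715 and 720 in starved RA. Both starved WT samples lay far below the other 6 samples, and the starved RA samples were the highest of all. It fell in WT by 1.39 log2 units (SE 0.039, limma adjusted p = 2.61e-15) and rose in RA by 0.19 log2 units (SE 0.039, limma adjusted p = 0.000489), the one gene of the set called in opposite directions. The interaction was 1.58 (SE 0.056, limma adjusted p = 4.75e-13), and starved RA held 3.86 times the mean of starved WT. Timp1 stood at 115 and 118 in unstarved WT, 44 and 47.1 in starved WT, 135 and 143 in unstarved RA and 73.8 and 74.2 in starved RA. It was lower in starved cells of both lines without overlap, less so in RA. The fall was 1.34 in WT and 0.90 in RA on the log2 scale, with an interaction of 0.44 (SE 0.065, limma adjusted p = 2.86e-05).

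Timp3 rose where the other inhibitors fell in WT, with values of 472 and 487 in unstarved WT, 661 and 647 in starved WT, 537 and 539 in unstarved RA and 1257 and 1302 in starved RA. The starved samples lay above those in normal medium in both lines, and both starved RA samples reached 1257 or more. The rise was 0.45 in WT and 1.25 log2 units (SE 0.038, limma adjusted p = 2.37e-14) in RA, and the interaction was 0.80 (SE 0.054, limma adjusted p = 3.06e-09). Exons of Timp3 overlap those of Syn3 on the opposite strand over 1733 of 8144 bases in GENCODE on GRCm38. Syn3 had a mean value of 740 over the 8 samples, beside 738 for Timp3. Reads of the pair cannot be told apart where the counting did not use strand. Whether the value of Syn3 holds reads of Timp3 was not tested. With quantile normalization the rise of Timp3 in WT was 0.293.

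**Figure D3:**
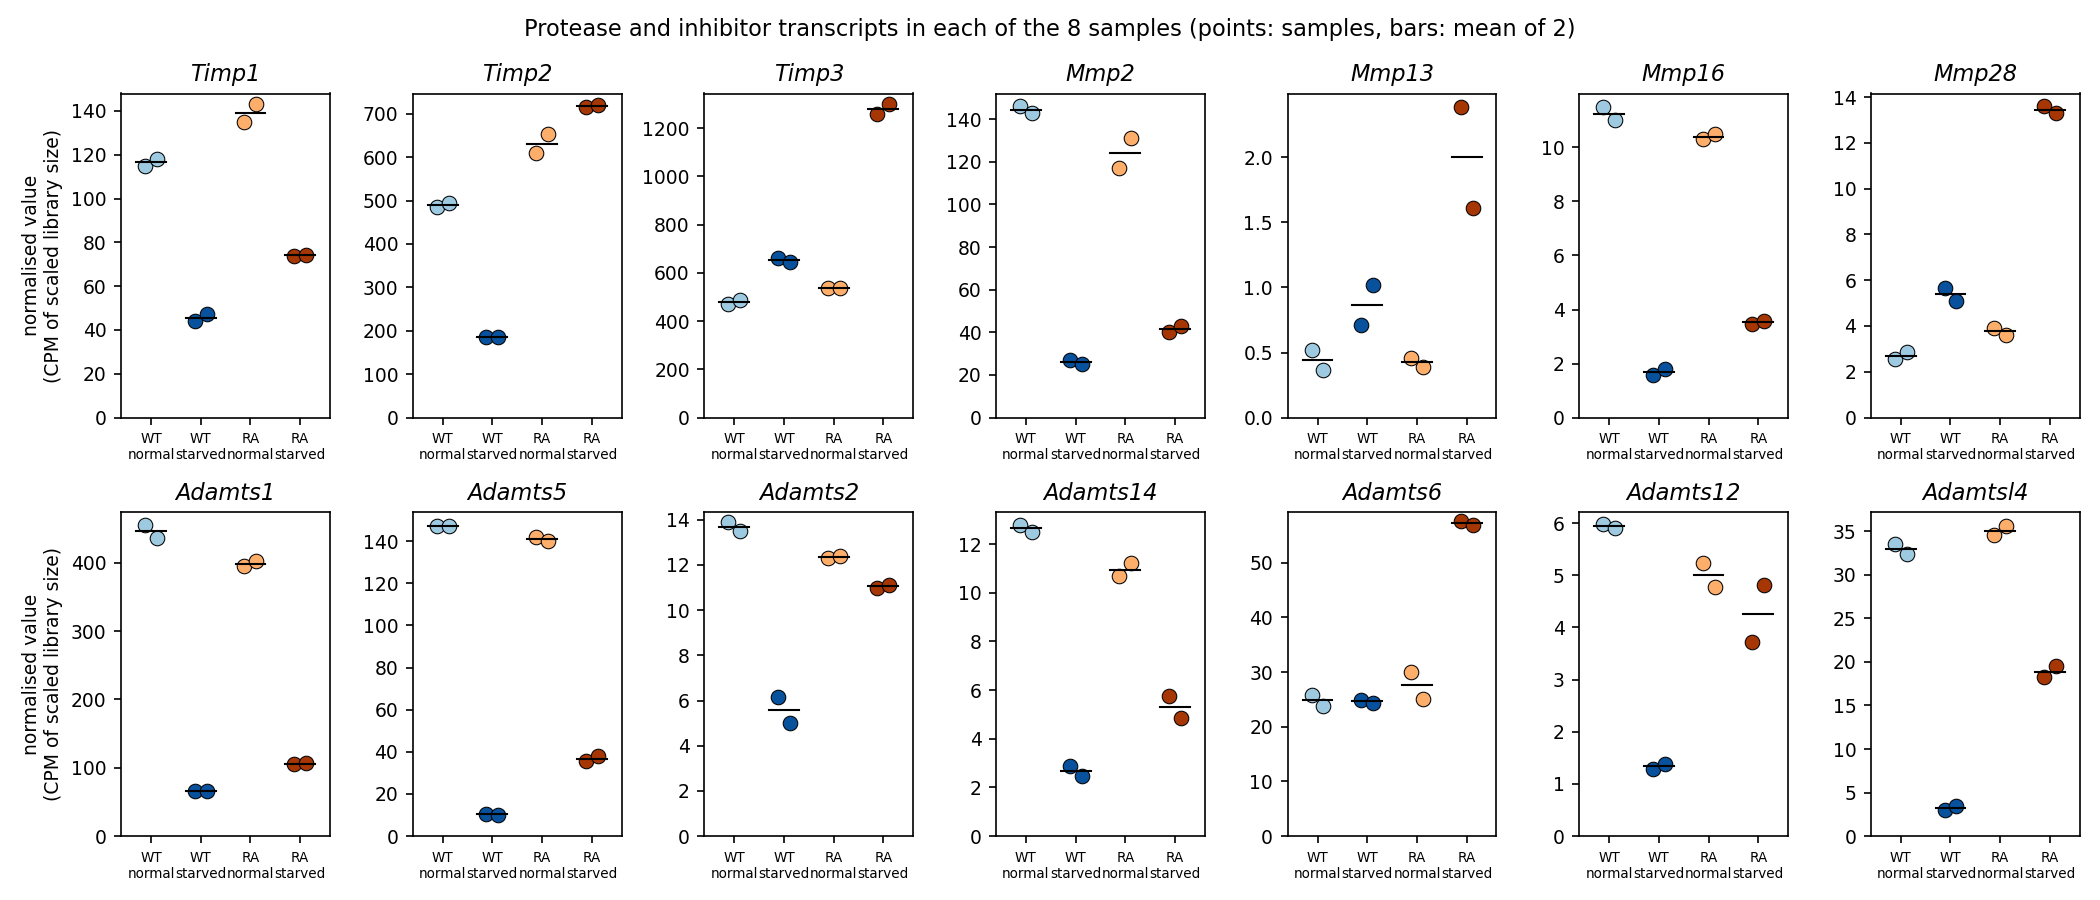
Normalised values (y axis, CPM of the scaled library size, each from 0) of 14 genes in the 8 samples, points for samples and bars for the mean of 2. Timp2 is low in starved WT alone (185 and 186), Timp3, Mmp28 and Adamts6 are highest in starved RA, and Mmp2, Adamts1, Adamts5 and Adamtsl4 fall in both lines and further in WT.

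The ratio of an inhibitor to an enzyme was computed within each sample, where library scaling cancels. The ratio of the Timp2 value to the Mmp2 value was 3.31 and 3.45 in unstarved WT, 6.89 and 7.49 in starved WT, 5.2 and 4.98 in unstarved RA and 17.9 and 16.8 in starved RA. It was higher in starved cells of both lines, and the starved RA samples lay above all others. The ratio of Timp3 to Adamts5 was 3.21 and 3.31 in unstarved WT, 63 and 64 in starved WT, 3.78 and 3.84 in unstarved RA and 35.5 and 34.2 in starved RA. This ratio too was higher in starved cells of both lines, but it was highest in starved WT. The ratio of Mmp14 to its substrate proMMP2, taken as Mmp2, ran from 1.49 to 1.73 in normal medium in both lines and stood at 7.04 and 7.64 in starved WT and 4.57 and 4.14 in starved RA. Ratios of transcripts are not ratios of proteins, and values not divided by length cannot show which transcript was more abundant.

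Among gelatinases and membrane-anchored MMPs the falls in starved WT were large and Mmp14 stood apart. MMP2, or gelatinase A, cuts denatured and basement membrane collagen. Mmp2 stood at 146 and 143 in unstarved WT, 26.8 and 24.9 in starved WT, 117 and 131 in unstarved RA and 40 and 42.8 in starved RA. The starved samples of both lines lay well below those in normal medium, with starved WT lowest and no overlap between the starved lines. It fell by 2.44 log2 units (SE 0.057, limma adjusted p = 2.03e-16) in WT and fell by 1.56 log2 units (SE 0.057, limma adjusted p = 2.2e-13) in RA, with an interaction of 0.88 (SE 0.08, limma adjusted p = 1.24e-07). Mmp16, a membrane-type enzyme also able to activate proMMP2, stood at 11.5 and 11 in unstarved WT, 1.57 and 1.79 in starved WT, 10.3 and 10.5 in unstarved RA and 3.47 and 3.57 in starved RA. Its group means stood in the same order as those of Mmp2, with starved WT lowest. The falls were 2.19 and 1.34 on the log2 scale, and the interaction was 0.85 (SE 0.15, limma adjusted p = 0.000168). Mmp24, another membrane-type enzyme, fell by 1.55 in WT and 0.91 in RA, and the interaction was 0.64 (SE 0.12, limma adjusted p = 0.000385). Mmp23, which is tethered by its amino-terminal end and lacks the usual hemopexin domain, fell by 0.59 in WT and was at 0.17 in RA (limma adjusted p = 0.0884), which did not pass the test, and its interaction was 0.76 (SE 0.12, limma adjusted p = 7.78e-05).

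Mmp14, the main membrane-type collagenase of fibroblasts, changed little. Its values were 218 and 224 in unstarved WT, 189 and 190 in starved WT, 203 and 214 in unstarved RA and 183 and 177 in starved RA, a range from 177 to 224 over all samples. Starved samples lay below those in normal medium in each line by a small margin, and the RA samples lay slightly below the WT samples in each medium. The response was -0.22 (SE 0.039, limma adjusted p = 5.85e-05) in WT and -0.21 (SE 0.039, limma adjusted p = 0.00015) in RA. Its interaction, 0.01 (SE 0.055, limma adjusted p = 0.854), was not called. With quantile normalization the response in RA was -0.127, still called lower.

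The secreted MMPs outside the gelatinases held the Mmp genes that rose. Mmp28, or epilysin, stood at 2.54 and 2.86 in unstarved WT, 5.68 and 5.1 in starved WT, 3.91 and 3.62 in unstarved RA and 13.6 and 13.3 in starved RA. Starved samples were higher in each line, and the starved RA samples lay far above the starved WT ones. It rose by 0.79 log2 units (SE 0.11, limma adjusted p = 4.58e-06) in WT and 1.60 log2 units (SE 0.11, limma adjusted p = 9.38e-10) in RA, with an interaction of 0.81 (SE 0.15, limma adjusted p = 0.000348) and 2.49 times the starved WT mean in starved RA. Mmp19 rose by 0.59 and 1.08 and had an interaction of 0.49 (SE 0.082, limma adjusted p = 9.19e-05). Its exons overlap Tmem198b on the other strand over 789 of 3533 bases. The mean value was 33.8 for Tmem198b and 32.4 for Mmp19. Mmp11, or stromelysin 3, which furin activates before it leaves the cell, was at 43.6 and 42.8 in unstarved WT and 41.9 and 43.8 in starved WT, so the groups overlapped, and at 38.1 and 40 and 66 and 60.6 in the matching RA groups, which did not. Its response was -0.01 in WT (limma adjusted p = 0.85) and a rise of 0.68 log2 units (SE 0.054, limma adjusted p = 6.41e-09) in RA, with an interaction of 0.69 (SE 0.076, limma adjusted p = 1.23e-06).

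Mmp13, collagenase 3, was the one tested collagenase and was rare. It stood at 0.522 and 0.363 in unstarved WT, 0.712 and 1.02 in starved WT, 0.46 and 0.388 in unstarved RA and 2.39 and 1.61 in starved RA. Both starved RA samples exceeded the others, and the lines overlapped in normal medium. Mmp13 rose by 1.06 log2 units (SE 0.15, limma adjusted p = 1.1e-05) in RA and by 0.37 log2 units (SE 0.15, limma adjusted p = 0.0376) in WT, with an interaction of 0.69 (SE 0.22, limma adjusted p = 0.0143). On the log2 scale of value plus 1 the changes of so low a gene are understated, and edgeR on recovered reads gave 2.23 for the response in RA, 0.946 in WT and 1.29 for the interaction of Mmp13. The interaction lost its call with no filter, with edgeR on halved reads and with DESeq2 (adjusted p = 0.0865). The call was also lost in the limma fits without WT normal replicate 1 (0.614), WT starved replicate 1 (0.573) or RA starved replicate 1 (0.505). The rise of Mmp13 in WT lost its call with no filter and with total-read scaling. It also did so in the limma fits without WT normal replicate 2 (0.291) and without WT starved replicate 2 (0.25). Of the 10 Mmp genes that lie together on chromosome 9 in the RefSeq annotation, 4 were above 0 in at least 4 samples and Mmp13 alone passed the filter.

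The ADAMTS proteoglycanases, which cut versican and aggrecan, held the deepest fall of the set, that of Adamts5. All 4 tested members fell in WT and in RA. Adamts5 stood at 147 and 147 in unstarved WT, 10.5 and 10.1 in starved WT, 142 and 140 in unstarved RA and 35.4 and 38 in starved RA. Starved WT was lowest and the starved lines did not overlap, whereas the lines lay close together in normal medium. It fell by 3.71 log2 units (SE 0.049, limma adjusted p = 1.95e-19) in WT, 14.3-fold in means, and fell by 1.91 log2 units (SE 0.049, limma adjusted p = 2.31e-15) in RA, 3.84-fold, with an interaction of 1.80 (SE 0.069, limma adjusted p = 1.56e-12). Adamts1, its neighbour on chromosome 16 with no protein-coding gene between them in the RefSeq annotation, stood at 455 and 437 in unstarved WT, 66.1 and 66 in starved WT, 395 and 403 in unstarved RA and 105 and 107 in starved RA. The order of the groups was the same as for Adamts5, but the lines were closer under starvation. The falls of Adamts1 were 2.74 in WT and 1.90 in RA on the log2 scale, with an interaction of 0.83 (SE 0.053, limma adjusted p = 1.54e-09). Adamts9 fell by 1.07 in WT and 0.38 in RA, with an interaction of 0.70 (SE 0.11, limma adjusted p = 5.43e-05).

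Adamts4 was the exception among the proteoglycanases. It stood at 5.63 and 5.83 in unstarved WT, 2.33 and 3.25 in starved WT, 5.82 and 6.41 in unstarved RA and 2.98 and 2.77 in starved RA, and the starved lines overlapped. It fell by 0.84 on the log2 scale in WT and 0.88 in RA, and the interaction of -0.04 (SE 0.18, limma adjusted p = 0.879) was not called. That interaction was 0.021 with total-read scaling and so has no settled sign.

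The ADAMTS procollagen N-propeptidases trim newly made fibrillar procollagen so that fibrils can form. Adamts2 stood at 13.9 and 13.5 in unstarved WT, 6.16 and 5.01 in starved WT, 12.3 and 12.4 in unstarved RA and 11 and 11.1 in starved RA. Both starved WT samples lay far below the other 6, which ran from 11 to 13.9. It fell by 1.17 log2 units (SE 0.097, limma adjusted p = 6.82e-09) in WT and was at -0.15 in RA (limma adjusted p = 0.188), with an interaction of 1.02 (SE 0.14, limma adjusted p = 1.15e-05). Adamts14 stood at 12.8 and 12.5 in unstarved WT, 2.89 and 2.48 in starved WT, 10.7 and 11.2 in unstarved RA and 5.76 and 4.85 in starved RA. It was lower under starvation in both lines, and lowest in WT. Adamts14 fell by 1.89 and 0.93 on the log2 scale, with an interaction of 0.96 (SE 0.15, limma adjusted p = 6.59e-05). Adamts3 was not called in any comparison, with values from 4.92 to 6.89 over the 8 samples and an interaction of 0.10 (SE 0.17, limma adjusted p = 0.642), which was -0.059 with quantile normalization.

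The other ADAMTS proteases spread from falls to rises. ADAMTS7 and ADAMTS12 cut cartilage oligomeric matrix protein, and ADAMTS6, ADAMTS10 and ADAMTS17 are linked to fibrillin microfibrils. Adamts12 stood at 5.98 and 5.91 in unstarved WT, 1.28 and 1.39 in starved WT, 5.24 and 4.77 in unstarved RA and 3.72 and 4.81 in starved RA. Only the starved WT samples were low among the 8. It fell by 1.57 log2 units (SE 0.12, limma adjusted p = 3.8e-09) in WT and was at -0.20 in RA (limma adjusted p = 0.175), with an interaction of 1.38 (SE 0.18, limma adjusted p = 6.98e-06). Adamts6 stood at 25.9 and 23.8 in unstarved WT, 24.9 and 24.4 in starved WT, 30 and 25.1 in unstarved RA and 57.6 and 56.9 in starved RA. Starved RA stood out, and the other 6 samples overlapped. Its response was -0.01 in WT (limma adjusted p = 0.919) and a rise of 1.03 log2 units (SE 0.072, limma adjusted p = 1.22e-09) in RA, and the interaction was 1.04 (SE 0.1, limma adjusted p = 3.14e-07).

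Adamts7 fell by 0.94 in WT and 0.18 in RA (limma adjusted p = 0.048), with an interaction of 0.76 (SE 0.11, limma adjusted p = 1.84e-05). The fall of Adamts7 in RA lost its call in 11 alternatives, among them DESeq2 (adjusted p = 0.0601) and each limma fit without 1 sample of WT normal, RA normal or RA starved, where it was at its smallest -0.157 without RA normal replicate 2. Adamts10 fell by 0.77 in WT, was at -0.14 in RA (limma adjusted p = 0.139) and had an interaction of 0.63 (SE 0.12, limma adjusted p = 0.000242). Its excess in starved RA was 0.28 (SE 0.081, limma adjusted p = 0.00668), but in the limma fits it was 0.126 without WT starved replicate 2 (BH-adjusted p = 0.165), 0.433 without WT starved replicate 1, 0.236 without RA starved replicate 1 (BH-adjusted p = 0.0626) and 0.179 with quantile normalization (BH-adjusted p = 0.0607). Adamts17, with values from 0.552 to 1.39 and overlapping groups, was called in no comparison.

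The ADAMTS-like proteins have the ancillary domains of ADAMTS enzymes without a protease domain, and several bind fibrillin. Adamtsl4, which binds fibrillin-1 and is known for lens dislocation when mutated, had the highest interaction of the set. It stood at 33.6 and 32.4 in unstarved WT, 3.02 and 3.51 in starved WT, 34.6 and 35.6 in unstarved RA and 18.3 and 19.5 in starved RA. Starved WT was far below the rest, starved RA in between, and the lines lay close together in normal medium. Adamtsl4 fell by 3.0 log2 units (SE 0.078, limma adjusted p = 9.44e-16) in WT, 10.1-fold in means, and fell by 0.86 log2 units (SE 0.078, limma adjusted p = 3.93e-08) in RA, 1.86-fold. The interaction was 2.14 (SE 0.11, limma adjusted p = 9.27e-11), and starved RA held 5.8 times the mean of starved WT. Adamtsl5 and Adamtsl3 went up instead. Adamtsl5 rose by 0.97 in WT and 1.61 in RA, with an interaction of 0.64 (SE 0.061, limma adjusted p = 2.42e-07). Adamtsl3 rose by 0.94 and 1.30, with an interaction of 0.36 (SE 0.074, limma adjusted p = 0.000693).

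**Figure D4:**
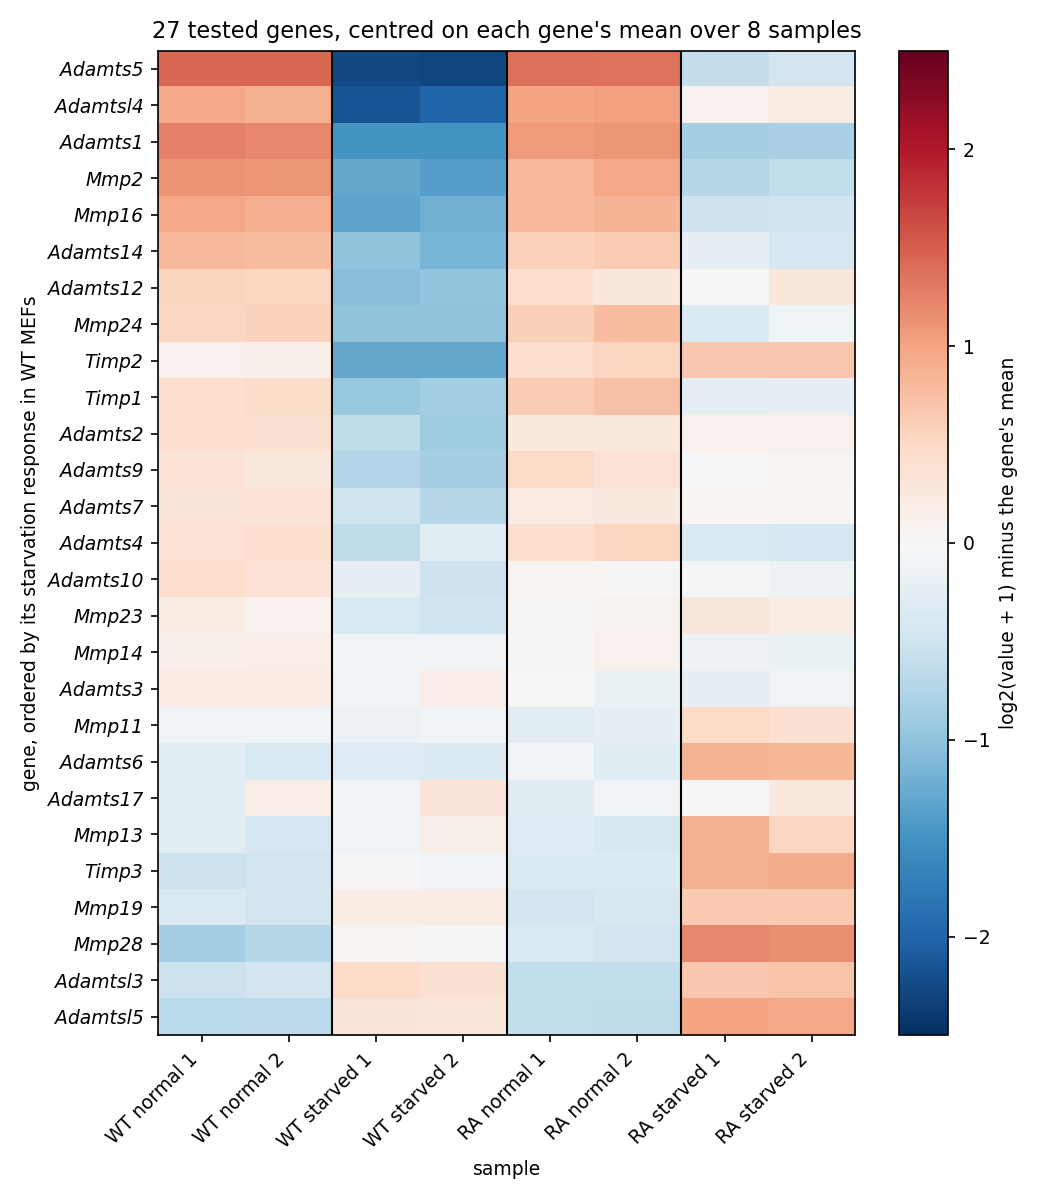
Values as log2(value + 1) less each gene's mean over the 8 samples (colour), for the 27 tested genes (rows, ordered by the response in WT) in the 8 samples (columns). Starved WT columns are blue in the upper rows, from Adamts5 to Timp1, where starved RA columns are paler or, for Timp2, red, and starved RA columns are the reddest in the lower rows from Adamts6 to Adamtsl5, apart from Adamts17.

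In normal medium the lines differed little. Of the 27 genes, 4 were higher and 3 lower in RA, against 6.68% and 2.95% of all genes tested, 9.63% together, and the median difference was -0.087 against 0.008 over all genes tested. All 3 inhibitors were higher in RA: Timp2 by 0.36 (SE 0.039, limma adjusted p = 7.58e-06), Timp1 by 0.25 (SE 0.046, limma adjusted p = 0.00206) and Timp3 by 0.17 (SE 0.038, limma adjusted p = 0.011). Mmp28 was also higher, by 0.36 (SE 0.11, limma adjusted p = 0.0461). Mmp2 was lower in RA, at -0.22 (SE 0.057, limma adjusted p = 0.0197), as were Adamts1 at -0.16 (SE 0.038, limma adjusted p = 0.0117) and Adamts10 at -0.35 (SE 0.081, limma adjusted p = 0.0118). None of the 7 reached a 1.5-fold difference, and Timp2 alone kept its call under all the alternatives that set no minimum fold. Without WT normal replicate 1 the count was 2, Timp1 and Timp2. The difference of Mmp2 was -0.142 without RA normal replicate 1, and that of Timp3 was 0.086 with quantile normalization, neither called. The split moved with the scaling, to 3 higher and 5 lower with total-read scaling, 3 and 3 with median-ratio scaling and 3 and 4 with quantile normalization.

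**Figure D5:**
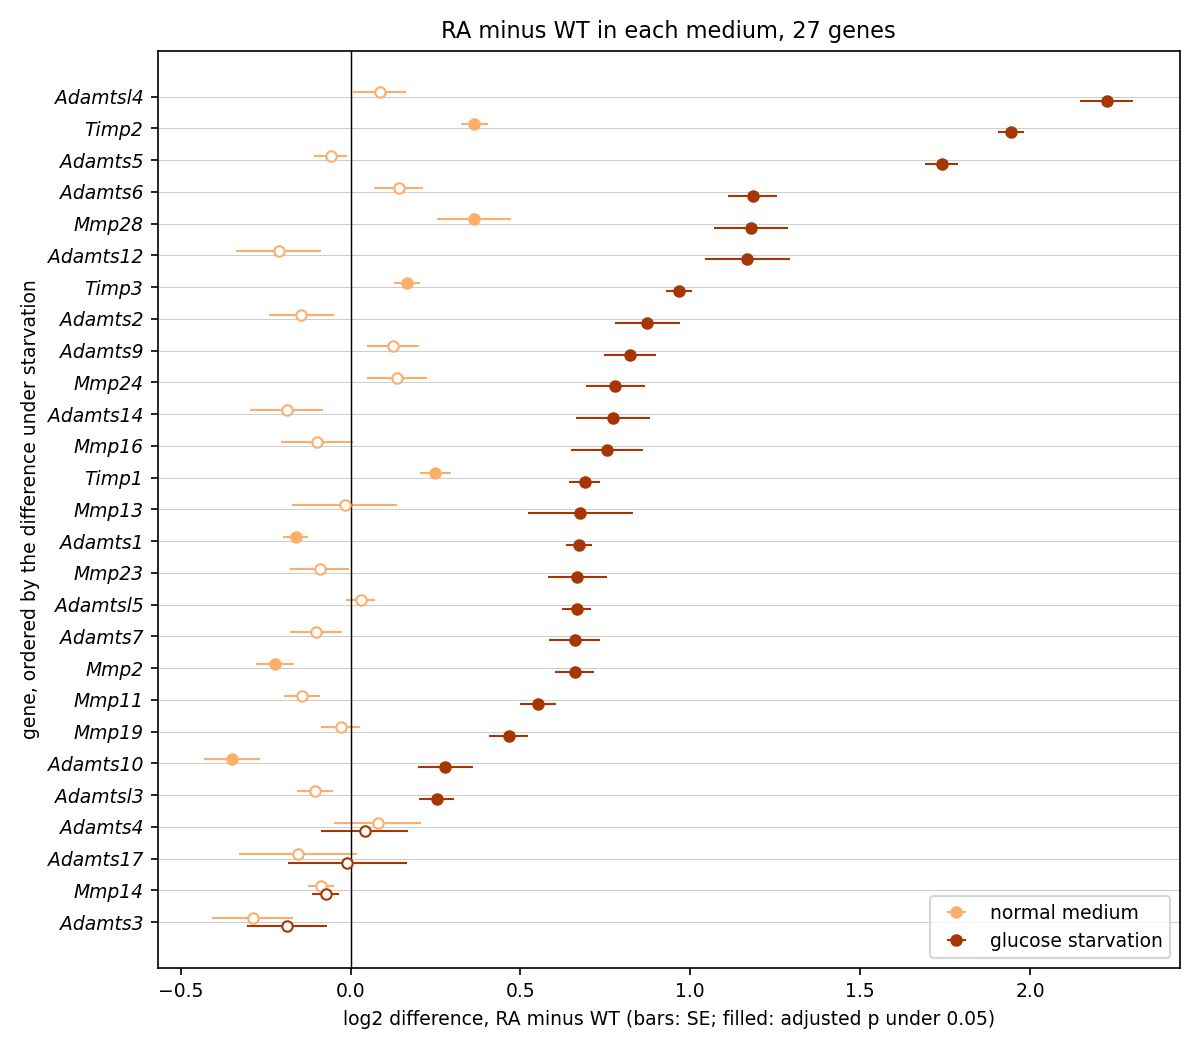
Difference RA minus WT (log2 of value plus 1, x axis, bars for the SE) of the 27 genes in normal medium (light) and under starvation (dark), filled where the adjusted p is under 0.05. In normal medium the points lie between -0.35 and 0.37, and under starvation 23 filled points lie between 0.25 and 2.23.

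The 16 members below the filter were rare in every group, between 0 and 1.16 in all samples, and held 60 reads at most in any sample. Adamts8 and Adamts19 were above 0 in 5 samples, and Mmp10, Adamts15, Adamts18 and Mmp1b in 7. They include the gelatinase Mmp9 (0.33 to 0.92), the stromelysins Mmp3 and Mmp10, which cut proteoglycans and activate other proMMPs, and the GPI-anchored Mmp17 and Mmp25. In an edgeR fit on recovered reads with a lower filter, chosen after the data had been seen, 10 of the 16 could be tested. This fit was not repeated on halved reads, although 78.2% to 80.5% of recovered counts under 10 were even. Every count of Mmp3, Mmp10 and Mmp17 was even. Where fragments were counted more than once, the p-values of this fit are too low. Under starvation 3 of the 10 were called, against 52.6% of the 20442 genes in that fit: Mmp3, Mmp10 and Mmp17. Mmp3 stood at 0.168 and 0.0731 in starved WT and 0.588 and 0.619 in starved RA, and Mmp10 at 0.0838 and 0 against 0.431 and 0.619, without overlap in either case. The log2 difference from edgeR was 2.32 for Mmp3 (BH-adjusted p = 0.00206), 3.64 for Mmp10 (BH-adjusted p = 0.0027) and 1.45 for Mmp17 (BH-adjusted p = 0.0088), all higher in RA. The 2 starved WT samples held 4 and 0 reads of Mmp10, so the size of its difference depends on how the fit treats such counts. In normal medium edgeR called 0 of the 10 (6.98% of all genes), and 1 had an unadjusted p under 0.05, Mmp17, at 0.644 and 0.504 in RA against 0.261 and 0.282 in WT (edgeR BH-adjusted p = 0.191). In WT 4 of the 10 were called, all lower under starvation (Adamtsl1, Mmp3, Mmp10 and Adamts20, against 68.2% of all genes), in RA 2 (Adamtsl1 and Adamts16, against 56.9%), and the interaction was called for Mmp3 alone (40.3% of all genes). The highest of these values is 60 reads, and most rest on far fewer.

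The genes around the proteases were followed with 4 lists written from general knowledge, and their counts are read against the shares of all genes tested, which were 39.3% higher and 39.2% lower for starvation in WT, 35% and 33.7% in RA, and 30.8% and 32.1% for starved RA against starved WT. Of 14 tested matrix substrates, 2 rose and 11 fell in WT, with a median of -1.006, and 3 rose and 5 fell in RA, with a median of 0.01. The falls with the greatest size in WT were those of Vcan, the versican cut by the ADAMTS proteoglycanases, at -3.77 (limma adjusted p = 1.95e-19) and Tnc, tenascin C, at -2.08 (limma adjusted p = 1.25e-17), and the rises were those of the small proteoglycans Dcn at 0.30 (limma adjusted p = 0.00875) and Bgn at 0.18 (limma adjusted p = 0.00297). In starved cells 13 of the 14 substrates were higher in RA and 0 lower. Vcan had mean values of 404 in unstarved WT, 28.6 in starved WT, 344 in unstarved RA and 131 in starved RA, the same order of groups as Adamts1 and Adamts5. Of 13 tested activators, clearance receptors and cell-surface regulators, 1 rose and 10 fell in WT, and 3 rose and 9 fell in RA. Between the starved lines 10 of them were higher and 2 lower in RA. Plau, the urokinase that makes plasmin, fell by 3.48 log2 units (SE 0.089, limma adjusted p = 6.74e-16) in WT, from a mean of 56.1 to 4.15, and fell by 0.51 in RA, from 67.1 to 46.6. Plat, the tissue-type activator, fell by 3.34 and 1.62, and Bsg, the MMP inducer basigin, rose in WT by 0.52 log2 units (SE 0.04, limma adjusted p = 2.48e-09).

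Of 8 tested ADAM proteases, the membrane-bound cousins of the ADAMTS enzymes, 1 rose and 6 fell in WT, and 1 rose and 6 fell in RA. In starved RA 5 were higher and 1 lower than in starved WT. Adam19 fell by 2.41 log2 units (SE 0.066, limma adjusted p = 1.81e-15) in WT and fell by 0.34 in RA, Adam12 fell by 2.30 and 1.31, and Adam9 rose by 0.08 log2 units (SE 0.036, limma adjusted p = 0.0467) in WT. The list of AP-1 and ETS factors, which bind many Mmp promoters, also held Runx2, which belongs to neither family. Under starvation 4 of its 14 genes were higher and 7 lower in WT, and 2 were higher and 8 lower in RA. The median response was -0.242 in each line. Between the starved lines the list did not lean one way, with 5 genes higher and 4 lower in RA. Atf3 rose by 3.09 log2 units (SE 0.053, limma adjusted p = 4.96e-18) and Ets2 by 2.14 in WT, and Etv4 fell by 1.72 and Fosl2 by 1.26. In normal medium 0 of 8 ADAM proteases, 3 of 14 genes of the AP-1 and ETS list, 5 of 13 activators and regulators and 4 of 14 substrates were called between the lines, the last with 3 higher and 1 lower in RA, against 9.63% of all genes tested.

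Promoters were read from a RefSeq table on GRCm38.p6 that held 19 of the 27 tested genes, as the 250 bases before each annotated start. Adamts5, Mmp2, Mmp16, Adamts4, Adamts6, Adamts7, Adamts10 and Mmp19 were not in it. The AP-1 site TGAGTCA was searched on both strands, as were the CRE TGACGTCA, the box TATAAA, the FOXO site GTAAACA and the E-box CACGTG. Mmp13 alone of the 19 held TGAGTCA, which 4.46% of 32851 promoters hold, and it alone held GTAAACA (3.17%). TATAAA was found in Mmp13 and Adamts1 (12.4% of all promoters), CACGTG in Adamts17 (6.02%) and TGACGTCA in none (1.55%). The 19 promoters had a median of 17 CpG pairs and 65.6% G and C, against 6 and 52.4% over all promoters, and Mmp13 was the lowest with 1 CpG and 40.4%. All 32851 promoters were counted whether or not their gene was tested, while the 19 are of tested genes, so the sets are unlike. A few are shown, the rare and starved-RA-high Mmp13 with its 3 motifs, the abundant Adamts1 that fell, and Timp2, whose response had opposite signs in the lines. In the first and the second, capitals mark the matched letters as read on the gene's strand, so the AP-1 and FOXO matches of Mmp13 appear as reverse complements, 35 and 81 bases before the start, with TATAAA at 16. In Adamts1 TATAAA begins 32 bases before the start. In Timp2 capitals mark the 21 CpG pairs. A match of letters is a description and shows no binding.
Mmp13, chr9:7272264-7272513, plus strand: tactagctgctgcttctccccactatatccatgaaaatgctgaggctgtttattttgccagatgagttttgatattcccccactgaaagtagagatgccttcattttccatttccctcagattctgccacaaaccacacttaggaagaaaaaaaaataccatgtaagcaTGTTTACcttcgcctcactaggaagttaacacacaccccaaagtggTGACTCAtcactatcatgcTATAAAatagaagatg
Adamts1, chr16:85803114-85803363, minus strand: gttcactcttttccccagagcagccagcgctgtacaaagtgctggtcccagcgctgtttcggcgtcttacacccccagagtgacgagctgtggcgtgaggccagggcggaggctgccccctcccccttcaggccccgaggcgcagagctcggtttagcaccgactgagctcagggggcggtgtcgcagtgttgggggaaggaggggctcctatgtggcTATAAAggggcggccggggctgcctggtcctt
Timp2, chr11:118355412-118355661, minus strand: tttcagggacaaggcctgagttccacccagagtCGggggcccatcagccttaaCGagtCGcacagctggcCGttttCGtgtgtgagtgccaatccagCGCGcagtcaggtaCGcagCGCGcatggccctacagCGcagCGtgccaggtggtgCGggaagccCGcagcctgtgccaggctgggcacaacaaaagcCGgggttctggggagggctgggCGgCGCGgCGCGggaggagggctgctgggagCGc

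Annotated exons of several other members also overlap a gene on the opposite strand, and the counting is not stated to use strand. Mmp24 shares 637 of 4683 exon bases with BC029722, which had a mean value of 37.7, Adamts7 shares 122 of 6282 with Tbc1d2b (25.4), Mmp11 shares 155 of 2778 with Chchd10 (5.35), Adamts9 shares 1381 of 15048 with A730049H05Rik (4.07) and Mmp28 shares 466 of 3874 with 1700020L24Rik (1.76). Their part in the values of these genes was not tested. Of the 97 called differences of the 27 genes over the 5 comparisons, 87 kept their call and direction in all alternatives other than the 1.5-fold minimum, which removes smaller differences by construction, and none changed sign.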

How the data were processed

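Libraries of polyA RNA were made with the Illumina TruSeq method. TopHat2 (version 2.0.9), bedtools, edgeR and mm9 are named in the submitters' processing notes, and the counter, annotation and strand setting are not given in the sources used here. The authors deposited 1 table of 49492 genes whose values are a signal, counts scaled as in CPM to an adjusted library size (columns summed to 965845 to 1029723). Its minus and plus columns were taken for unstarved and starved cells, as the study marks its conditions. Dividing by what 1 read is worth gave whole reads for 100% of nonzero values (tolerance 0.05). Between 78.2% and 80.5% of the recovered counts under 10 were even, so edgeR with the main filter was also run on halved reads.

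The members and all lists were chosen with earlier results of these data known. The 16232 genes that reached 1 in 2 or more samples were fitted with limma (version 3.58.1, R version 4.3.3) on log2(value + 1), which understates changes of low genes, over all 8 samples, using trended eBayes. The 2-sided p-values were adjusted by the Benjamini-Hochberg (BH) method across all genes tested, and calls were made under 0.05. The plan had assumed plain CPM, and the test was kept for the scaled values. Values in every sample are given for the 12 called members with the highest absolute interaction and for all tested Timp genes. The same holds for tested members whose group means span at least 4-fold. Mmp11, Mmp14 and Adamts4, also given in every sample, were chosen after their values were seen. So were Mmp3 and Mmp10, given in starved samples only, and Mmp17, given in samples in normal medium only. Of each list around the proteases, the 2 called genes with the largest rise and the 2 with the largest fall in WT are named. Replicates of each group differed by more than sampling noise (chi-square per degree of freedom 3.33 to 14.6).

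Alternatives were other pseudocounts, filters and scalings, a fit on only the groups compared, a replicate block, eBayes without the trend, a 1.5-fold minimum, leaving out each sample, and count models of the recovered reads in DESeq2 (version 1.42.0) and edgeR (version 4.0.16). An edgeR fit with a filter of 0.2 in at least 2 samples, for members below the main filter, was added after the data had been seen; over 20442 genes it called 1427 between the lines in normal medium, 10749 under starvation, 13936 for starvation in WT, 11623 in RA and 8243 for the interaction. Exon lengths and overlaps came from GENCODE M21 and promoters from RefSeq, both on GRCm38, not the mm9 build of the files, and not every overlap is reported here. The limma, edgeR and DESeq2 fits were tested on simulated counts with known changes in starved RA, for RA against WT under starvation and for the interaction only.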

Additional observations from a re-analysis of the deposited data

Results flagged for a closer look

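The response to starvation differed between the lines, by the limma interaction test, for 23 of the 27 tested genes. The share over all genes tested was 50.6%, with 24.5% above 0 and 26.1% below. These 23 genes are the ones a reader may want to look at again. All 23 differences, given as the log2 response in RA less that in WT, were above 0. Those with the highest values were Adamtsl4 (2.14), Adamts5 (1.80), Timp2 (1.58), Adamts12 (1.38), Adamts6 (1.04) and Adamts2 (1.02). Next came Adamts14 (0.96), Mmp2 (0.88), Mmp16 (0.85), Adamts1 (0.83), Mmp28 (0.81), Timp3 (0.80), Adamts7 (0.76), Mmp23 (0.76) and Adamts9 (0.70). The lowest were Mmp11 (0.69), Mmp13 (0.69), Mmp24 (0.64), Adamtsl5 (0.64), Adamts10 (0.63), Mmp19 (0.49), Timp1 (0.44) and Adamtsl3 (0.36). With 2 samples in each group, no sample could be checked for standing apart from the rest of its group.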

How the results depend on the processing

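Of 97 called differences, 10 lost the call in at least 1 alternative other than the 1.5-fold minimum, and none changed sign. Over the alternatives the count of genes called ran from 22 to 24 for RA against WT under starvation (19 at a 1.5-fold minimum), 22 to 23 for the interaction (20), 22 to 23 for starvation in WT (20) and 20 to 22 for starvation in RA (17). In normal medium the 7 calls became 2 with no filter, 2 with eBayes without the trend, 0 at a 1.5-fold minimum and 2 to 7 with 1 sample left out, and the cause was not tested. The replicate numbers are only shared labels: deviations of same-numbered samples correlated at -0.00764 to 0.157 between groups, and with a replicate block 7, 23, 23, 22 and 23 genes were called in normal medium, under starvation, in WT, in RA and in the interaction.

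Differences that were not called had no settled sign in places, and the cause was not tested. Between the lines in normal medium Adamtsl5 was -0.017 with total-read scaling, and leaving out 1 sample gave -0.0783 to 0.0214 for Mmp19, -0.371 to 0.0605 for Adamts17 and -0.0967 to 0.0625 for Mmp13. Under starvation Adamts4 was -0.119 with quantile normalization (-0.136 to 0.219 without 1 sample) and Adamts17 was 0.0037 with total-read scaling (-0.198 to 0.18). In WT Adamts6 was 0.0405 with quantile normalization (-0.0673 to 0.0506), Mmp11 ran from -0.0442 to 0.021 and Adamts17 from -0.0499 to 0.381. In RA Adamts3 ran from -0.151 to 0.0192. The interaction was -0.059 for Adamts3 with quantile normalization (-0.0384 to 0.241) and 0.021 for Adamts4 with total-read scaling (-0.215 to 0.139), and ran from -0.0232 to 0.0506 for Mmp14 and -0.0697 to 0.361 for Adamts17. Depth limits Mmp13, Adamts17 and the 16 genes below the filter, which rest on few reads.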
